A study of Mus musculus with 2 samples.

Results

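In the droplet library of GFP-sorted melanocyte stem cells (McSCs) at early anagen, 564 of 3464 barcodes that passed the depth and mitochondrial limits carried melanocyte transcripts together with a moderate level of epidermal keratin transcripts. A barcode stands for 1 droplet and ideally for 1 cell, and UMIs are the molecules counted in it. These mixed barcodes were chosen by measured values: more than 10000 UMIs, under 5% mitochondrial UMIs, at least 1 *Dct* UMI, 3 or more *Krt10* and *Krt14* UMIs in sum, and *Krt5*, *Krt10* and *Krt14* together under 2000 CPM (counts scaled to 1000000 UMIs of the barcode). Levels of these 4 genes are therefore a description of the choice and no finding. The comparison barcodes, 2785 in number, met the same limits with fewer than 3 *Krt10* and *Krt14* UMIs. Mixed barcodes made up 16.8% of mixed and comparison barcodes together (exact 95% interval, 15.6 to 18.2%), and 564 of the 11010 barcodes of the library.

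The early-anagen mice carried *Dct-rtTA* and *tetO-H2B-GFP*, so the label follows *Dct* promoter activity during doxycycline feeding. They were depilated at 8 weeks of age, fed doxycycline (1 g per kg of diet) for 4 days and sampled 4 days after depilation. The second library came from hair bulbs at anagen VI of mice of the same genotype at 5 weeks of age, also fed doxycycline for 4 days. Each library combined cells of 4 mice and was the sole sample of its condition, with 116800173 UMIs at early anagen and 58161397 in the bulb library, and 1 barcode sequence occurred in both. No test between conditions was possible, barcodes were not treated as replicates, and every interval below covers counting error only.

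Melanocytes make pigment and hand it to keratinocytes. *Dct*, *Tyrp1* and *Tyr* encode melanin-synthesizing enzymes, *Pmel* and *Mlana* encode melanosome proteins, and *Mitf* and *Sox10* are the transcription factors of the lineage. The interfollicular epidermis is layered: basal keratinocytes express *Krt5* and *Krt14*, suprabasal spinous cells switch to *Krt1* and *Krt10*, and the outermost living cells make the proteins of the cornified envelope, among them loricrin (*Lor*) and the late cornified envelope proteins (*Lce* genes). In the GRCm38 mouse genome *Dct* lies on chromosome 14 at 118012790-118052244, *Krt10* and *Krt14* lie on chromosome 11 at 99385254-99389364 and 100203162-100207548, and *Lor* and *Lce1a1* lie on chromosome 3 at 92080271-92083142 and 92646535-92648307, all 5 on the minus strand.

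Mixed barcodes were shallow. Their median was 13011.5 UMIs (quartiles, 11247 and 20011) against 24528 UMIs (17519 and 34301) in the comparison barcodes, a ratio of 0.53, and 3229.5 against 4684 detected genes. The median mitochondrial share was 2.99% against 3.07%. A further group, used for reference, held the 113 barcodes of the same depth and mitochondrial limits with *Krt5*, *Krt10* and *Krt14* at 2000 CPM or more, called epidermal here; their median was 32865 UMIs, and 56 of them had 10 or more *Dct* UMIs. The mixed barcodes were thus less deep than either of these groups. A doublet score (Scrublet) had a median of 0.0210 in mixed, 0.0516 in comparison and 0.0785 in epidermal barcodes. The caller marked 0 of the 3464 barcodes, also 0 of the 56 epidermal barcodes with 10 or more *Dct* UMIs, so its calls tell no group from another. Nothing is read from depth or score about joined cells, which were not tested.

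**Figure D1:**
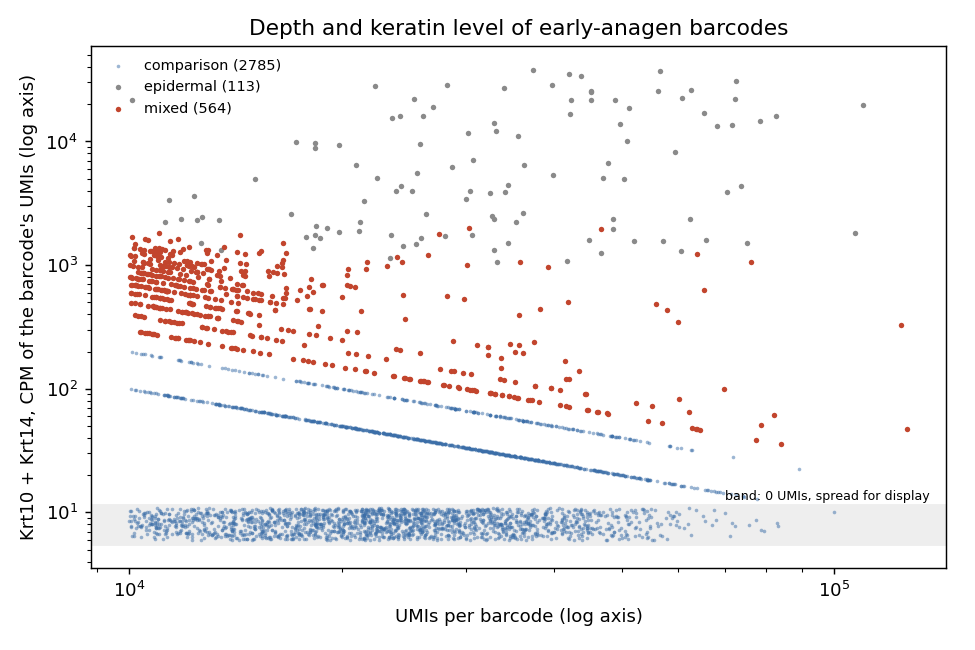
Each point is 1 early-anagen barcode, with its UMIs on the horizontal log axis and the CPM of *Krt10* plus *Krt14* on the vertical log axis; the grey band holds barcodes with 0 such UMIs, spread for display. The 564 mixed barcodes (red) crowd at the shallow end, with a median of 13011.5 UMIs. Their median keratin level of 546 CPM lies between those of the 113 epidermal (grey, 4364 CPM) and the 2785 comparison barcodes (blue, 0 CPM). The ranges overlap, with 35.7 to 1978 CPM in mixed, up to 198 CPM in comparison and 1054 CPM or more in epidermal barcodes.

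Near the lower limit of the choice the barcodes changed by degrees, and toward the upper limit the trend turned. With 1, 2, 3, 4 and 5 *Krt10* and *Krt14* UMIs there were 723, 247, 96, 54 and 54 barcodes, of which 3.18%, 6.48%, 25%, 44.4% and 68.5% had a *Lor* UMI. The median UMIs of these sets were 27410, 28964, 25849, 15521 and 12702.5. On the upper side 23 barcodes lay at 1500 to 2000 CPM and 13 at 2000 to 2500 CPM. Of the mixed barcodes 462 had both *Krt10* and *Krt14*, 55 had *Krt10* alone and 47 had *Krt14* alone.

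The keratin-bearing fraction depended on depth in an uneven way. Among barcodes with a *Dct* UMI and under 2000 CPM of the 3 keratins, 52.7% (47.6 to 57.8%; 203 of 385) had 3 or more *Krt10* and *Krt14* UMIs at 10000 to 12000 UMIs, against 36.4% at 12000 to 15000, 11.9% at 15000 to 20000 and 5.78% at 20000 to 30000. At greater depth the share was 7.31% (30000 to 50000) and 12.4% (over 50000). The pooled *Krt10* and *Krt14* level was 421 CPM at 10000 to 12000 UMIs and 36.4 CPM at 20000 to 30000. Below the depth limit it was 384 CPM in barcodes of 8000 to 10000 UMIs (199 of 413 with 3 or more), 335 CPM at 5000 to 8000, 428 CPM at 2000 to 5000, 460 CPM at 1000 to 2000 and 257 CPM at 500 to 1000. These are levels of genes used for the choice, and they are given as its description.

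**Figure D2:**
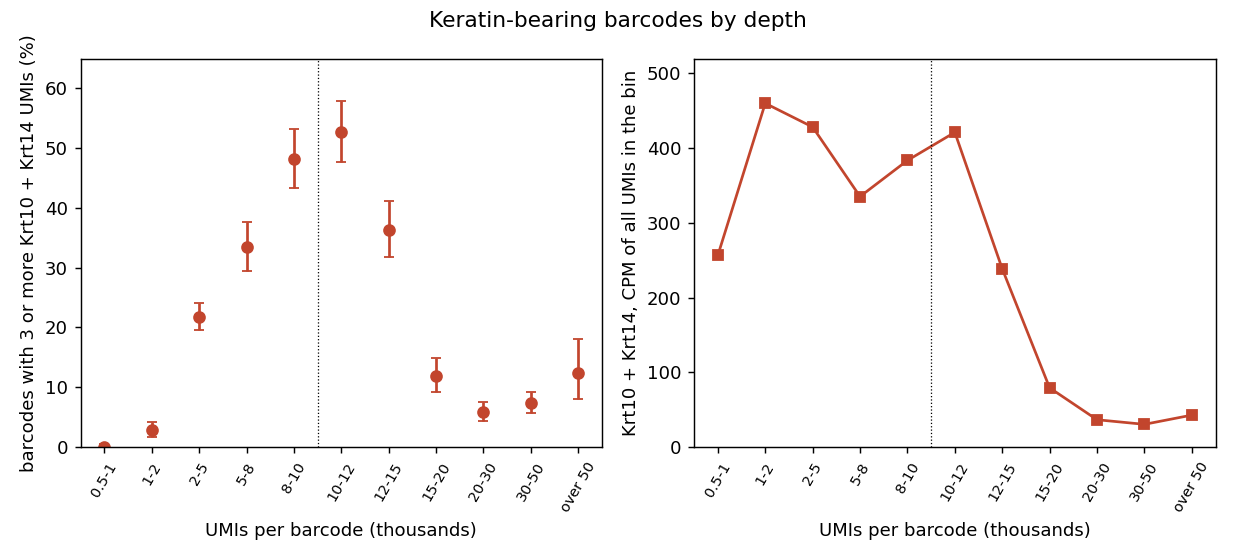
Left, percent of barcodes (with a *Dct* UMI, under 5% mitochondrial UMIs and under 2000 CPM of 3 keratins) that had 3 or more *Krt10* and *Krt14* UMIs, by UMIs per barcode, with exact 95% intervals; right, *Krt10* plus *Krt14* CPM of all UMIs in the bin. The dotted line marks 10000 UMIs; the pooled level was 421 CPM just above it and 36.4 CPM at 20000 to 30000 UMIs.

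For gene levels each barcode was thinned at random to 10000 UMIs, so that shares of barcodes compare at equal depth. Of the 7699 genes that reached 10 CPM in mixed or comparison barcodes, 121 (1.57%) were 2-fold or more higher in mixed than in comparison barcodes and 309 (4.01%) were 2-fold or more lower; the median log2 ratio of these genes was -0.17. Because the choice used keratin counts in the same contrast, the keratinocyte genes below are given as a description. Of the 121 higher genes, 108 were also 2-fold or more higher in the epidermal barcodes than in the comparison barcodes. Both ratios use the same comparison barcodes, and no share over all 7699 genes stands beside this count, so it is a description only. Among the 13 other genes, 5 encode proteins of mitosis (*Cdk1*, *Pbk*, *Plk1*, *Ska1* and *Ube2c*). They were named after their values were seen, and no enrichment is read from them.

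Of the 12 spinous genes other than *Krt10*, 11 were higher in mixed barcodes beyond counting error. By 2-fold or more 10 were higher, with a median log2 ratio of 4.35 (median of the gene intervals, 3.97 to 4.83). *Krt1*, the type II partner of *Krt10*, stood at 171 CPM (160 to 182) against 2.41 CPM (1.86 to 3.06) in comparison barcodes and was found in 61.2% against 1.69% of barcodes. *Lgals7*, encoding the keratinocyte lectin galectin-7, stood at 580 against 35.3 CPM and in 87.8% against 16.01% of barcodes. *Sfn*, encoding 14-3-3 sigma of stratified epithelium, stood at 145 against 5.46 CPM. *Klf4*, a transcription factor of barrier formation that the comparison barcodes also expressed, was at 80.5 against 84.6 CPM, and *Fabp5* at 1118 against 750 CPM. Thus the 2 spinous genes found in most or many comparison barcodes differed by less than 2-fold, and the others by more than 10-fold.

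Basal genes other than the choice genes gave a smaller and more divided picture. Of 7 with UMIs in both groups, 5 were 2-fold or more higher, and the median log2 ratio was 2.53 (3.08 with *Col17a1*, absent from comparison barcodes, set at its bound of 3 counts). *Krt15*, a keratin of basal and bulge cells, was at 49.1 against 1.69 CPM and *Trp63*, the transcription factor of stratified epithelium, at 5.496 against 0.215 CPM. *Itga6* was at 27.3 against 40.8 CPM and *Lama3* at 4.43 against 5.24 CPM. Desmosome and adhesion genes were all higher, 12 of 12 by 2-fold or more with a median log2 ratio of 3.76, led by *Perp* (115 against 4.63 CPM) and including *Dsp*, encoding desmoplakin (18.3 against 1.90 CPM). All values of the wound-activated list were above those of the comparison barcodes, 8 of 9 by 2-fold or more, with *Krt16* at 79.6 against 1.29 CPM and *Krt6a* at 12.4 against 0.790 CPM, while *S100a8* was at 47.3 against 43.1 CPM. The 12 highest ratios among genes of at least 50 CPM were those of *Lce1a1*, *Lce1a2*, *Lce1b*, *Lce1c*, *Lce1d*, *Krt1*, *Calm4*, *Krt16*, *Ly6g6c*, *Cstdc5*, *Lor* and *Defb6*.

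Cornified envelope genes had the highest list median under the main limits, and 1 barcode carried much of their sum. At over 5000 UMIs the spinous median was the higher one (3.81 against 2.01). It was also higher in mixed barcodes above the upper UMI quartile (2.85 against 1.25 for cornified genes). Of 35 with UMIs in both groups, 33 were 2-fold or more higher and 1, *Flg2* with 2 UMIs against 100, was lower (log2 ratio, -3.34; -6.41 to -1.45; 97 of the 100 lay in 1 comparison barcode, and without the highest barcode of each group the ratio was 0.72, -4.99 to 4.36), and the median log2 ratio was 5.47. The highest mixed barcode held 3483 of the 10493 cornified UMIs (33.2%), and the next one 520; 1 comparison barcode held 2084 of 3671 (56.8%), and the next one 17. Without the highest barcode of each group the summed level was 1245 against 57.0 CPM. The highest mixed barcode had 10016 UMIs, 1024 detected genes, 1 *Dct* UMI and 3 UMIs of the 10 melanocyte markers, so the choice admitted it through a single molecule. It led 20 genes of 100 or more UMIs in which 1 barcode held at least 20%, among them 8 of the *Lce1* family, *Calm4*, *Crct1* and *Asprv1*. A second barcode of 14333 UMIs, with 3 *Dct* UMIs, led *Krt17*, a keratin of the outer root sheath, *Krt79*, a keratin of the infundibulum, and *Cst6* and *Defb6*.

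Beyond these barcodes, cornified transcripts were spread thinly over many mixed barcodes. *Lor* was at 356 CPM (340 to 372) against 8.40 CPM, and its log2 ratio of 5.40 became 5.20 without the highest mixed barcode. It was found in 59.4% of mixed and 1.54% of comparison barcodes. *Lce1a1* was at 113 CPM against 0.251 CPM, in 27.1% of mixed and 0.251% of comparison barcodes, and 54.3% of its mixed UMIs lay in 1 barcode. The 14 *Lce1* genes are near-identical neighbours whose reads may be split unevenly, so their sum is the safer value: 572 CPM in mixed barcodes, 301 CPM without the highest barcode, 1.80 CPM in comparison and 64.6 CPM in epidermal barcodes. An *Lce1* UMI was found in 57.4% of mixed, 1.51% of comparison and 12.4% of epidermal barcodes. The *Lce3* genes were lower in mixed than in epidermal barcodes where they had UMIs: *Lce3c* was at 6.03 CPM (34 UMIs, against 1 in comparison barcodes) and 133 CPM, *Lce3e* at 0.887 and 140 CPM and *Lce3f* at 0.177 and 19.5 CPM, while *Lce3a*, *Lce3b* and *Lce3d* had 0 UMIs in mixed barcodes. *Sprr2d*, a small proline-rich protein gene, was at 0.709 and 181 CPM. *Flg*, encoding the filament-aggregating filaggrin, was at 73.4 CPM in mixed and 460 CPM in epidermal barcodes.

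**Figure D3:**
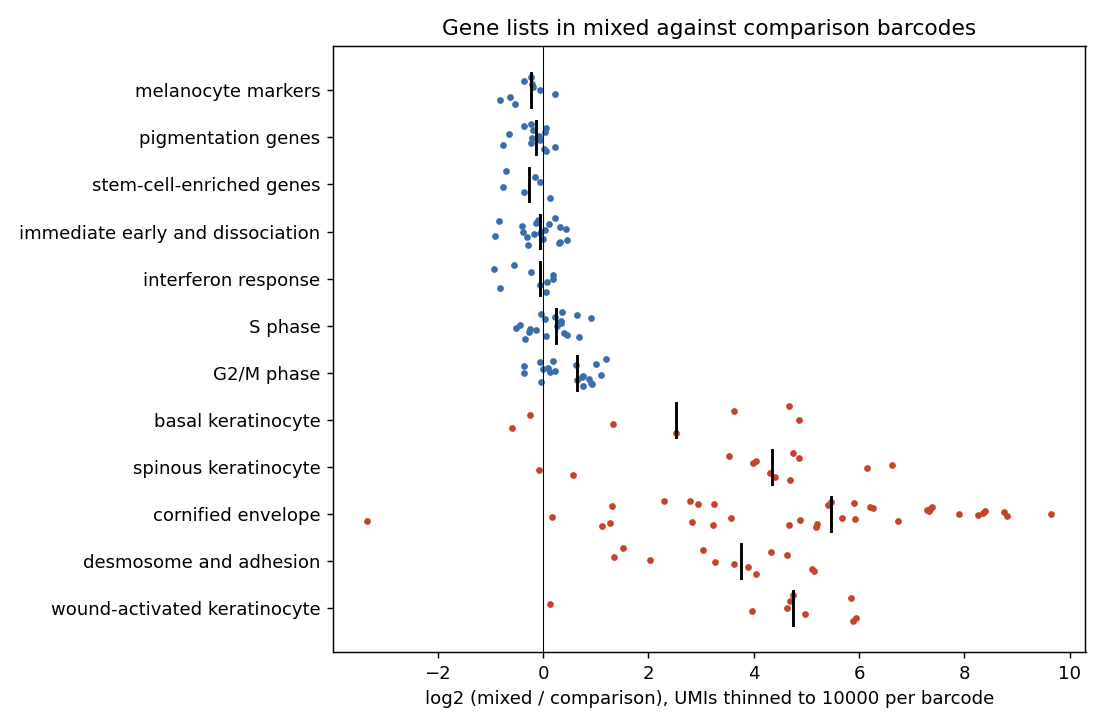
Log2 ratio of each listed gene in mixed over comparison barcodes (1 point per gene with UMIs in both groups, all barcodes thinned to 10000 UMIs; black bars are list medians; the 4 genes used for the choice are left out). Keratinocyte lists (red) have medians from 2.53 to 5.47, and melanocyte, stress, interferon and S-phase lists (blue) lie near 0, with a G2/M median of 0.64.

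Set against the epidermal barcodes, the keratinocyte genes reached unequal fractions. The excess of the 3 layer lists in mixed over comparison barcodes was 10.9% of the excess in epidermal barcodes. It was 2.46% for basal, 7.97% for spinous and 22.0% for cornified genes. Without the highest mixed and comparison barcodes the cornified value was 14.97%. By single genes the medians were 3.13% (8 basal genes), 7.02% (12 spinous) and 7.14% (25 cornified). These fractions compare group sums, and no epidermal barcode was left out. Cornified UMIs of thinned epidermal barcodes were uneven, with a median of 2, an upper quartile of 24 and a mean of 79.9. In mixed barcodes the median was 6, the upper quartile 17 and the mean 18.6. By the median, mixed barcodes thus held more cornified UMIs than epidermal ones, and by the mean fewer. The epidermal barcodes were themselves a mixture, since their median *Dct* level was 164 CPM with an upper quartile of 3262 CPM. Barcodes of 500 to under 1000 UMIs, which lie below the depth limit, formed another reference of 1101 barcodes and 784782 UMIs. In these the 9 melanocyte markers other than *Dct* summed to 14916 CPM, *Krt1* to 886 CPM, *Lor* to 173 CPM and the *Lce1* genes to 254 CPM. *Lgals7* was at 3602 CPM there, and *Lor* was lower and *Krt1* and *Lgals7* were higher than in mixed barcodes. These low-UMI barcodes were taken without a *Dct* or keratin limit and were uneven. Their *Krt10* and *Krt14* level had a median of 0 CPM, a 95th percentile of 10145 CPM and a maximum of 64143 CPM. *Krt10* made up 49.1% (47.4 to 50.9%) of *Krt10* and *Krt14* UMIs in mixed barcodes, which were chosen on both genes, 49.6% (46.9 to 52.2%) in the low-UMI barcodes and 33.4% (32.5 to 34.3%) in epidermal barcodes; nothing is read from this share.

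The melanocyte markers summed to nearly the level of the comparison barcodes. All 9 markers other than *Dct* were present, and their sum was 17617 against 18536 CPM. By single genes 8 were lower, all 8 beyond counting error, and 1 was higher. The median log2 ratio was -0.24 (-0.34 to -0.22), beside -0.17 over all genes of 10 CPM or more. *Mlana* was higher, at 6523 against 5573 CPM, and *Tyrp1* lower, at 4711 against 5555 CPM. *Kit*, the receptor for stem cell factor, was at 276 against 488 CPM and *Mitf* at 288 against 447 CPM. Of 14 pigmentation genes 5 were higher (2 beyond counting error) and 9 lower (7 beyond counting error), none by 2-fold. Their median was -0.14, and of the 7699 genes 4852 were lower. Stem-cell-enriched genes had a median of -0.26, from *Cd9* at 770 against 705 CPM to *Col12a1* at 146 against 248 CPM. In barcodes of 10000 to 20011 UMIs all 6 of these genes were lower, 2 by 2-fold or more, with a median of -0.64 against -0.23 over all genes of 10 CPM or more in that range, of which 18.5% were lower by 2-fold or more, and *Cd9* was at 801 against 856 CPM. In that range the pigmentation median was 0.00 (7 higher, 6 beyond counting error, and 7 lower, 4 beyond counting error). The marker median was -0.37. The 10 markers with *Dct* held a median of 241 of 10000 UMIs in mixed and 255 in comparison barcodes. Only 2 mixed barcodes (0.355%) and 6 comparison barcodes (0.215%) had fewer than 50.

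Members differed among themselves along the same depth axis. When they were divided into quartiles by UMIs (141 each), the median *Krt10* and *Krt14* level was 765, 622, 530 and 120 CPM from the shallowest to the deepest quartile, an order that the choice at 3 UMIs fixes in part. *Lor* was found in 90.1%, 78.0%, 61.7% and 7.80% of barcodes at 10000 UMIs, *Lce1a1* in 51.1%, 37.6%, 18.4% and 1.42%, and *Krt1* in 82.3%, 80.1%, 63.8% and 18.4%. The deepest quartile began at 20046 UMIs, had a median of 32986 UMIs and reached 3 *Krt10* and *Krt14* UMIs at a low concentration. Across the 564 barcodes *Lor* and *Crct1* UMIs had a Spearman correlation of 0.65 and *Lor* and *Krt1* of 0.62, whereas *Lor* and *Krt17* had -0.0037; these are descriptions of barcodes of 1 library.

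Because depth differed, mixed and comparison barcodes of 10000 to 20011 UMIs were also set side by side, 423 (median 12105 UMIs before thinning) and 931 (median 15084). This range was chosen after the data were seen. In it 4.55% of 7722 genes that reached 10 CPM were 2-fold or more higher in mixed barcodes and 18.5% lower, with a median log2 ratio of -0.23. All 20 G2/M genes were higher in mixed barcodes, 19 beyond counting error, with a median log2 ratio of 2.65 (2.21 to 3.14), against 0.64 in barcodes of any depth and 1.47 when comparison barcodes were matched to all mixed barcodes on UMIs by decile. Within the range the comparison barcodes were still the deeper ones. In barcodes of any depth 4 G2/M genes (2 beyond counting error) and 7 S-phase genes (4 beyond counting error) were lower instead. Among them were *Mki67* (-0.36), *Cenpe* (-0.37), *Mcm4* (-0.51) and *Mcm6* (-0.44). *Ube2c*, a ubiquitin-conjugating enzyme of mitotic exit, was at 273 against 26.7 CPM and was detected in 90.5% of mixed and 12.7% of comparison barcodes; at any depth it was at 269.7 against 117.8 CPM. *Top2a*, encoding topoisomerase II alpha, was at 118 against 16.2 CPM and in 67.1% against 7.41%, but at any depth it was at 154 against 160 CPM (log2 ratio, -0.05; -0.16 to 0.06). All 20 S-phase genes were higher as well, with a median of 1.30 (0.25 in barcodes of any depth). *Rrm2*, a subunit of ribonucleotide reductase, was detected in 66.9% against 6.34% of barcodes and the clamp gene *Pcna* in 89.6% against 58.5%.

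In this range the G2/M genes were spread more evenly over mixed than over comparison barcodes. Summed UMIs of the 20 G2/M genes ran from 4.1 (5th percentile) over a median of 14 to 22 (95th percentile) per 10000 UMIs in mixed barcodes, and 3.31% had 0. Among comparison barcodes of the same UMI range 63.5% had 0, and the 95th percentile was 13. Their summed level was 1393 against 239 CPM. Over barcodes of any depth it was 1574 against 1071 CPM, with 6.03% of mixed and 42.9% of comparison barcodes at 0 and 95th percentiles of 38 and 64.

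**Figure D4:**
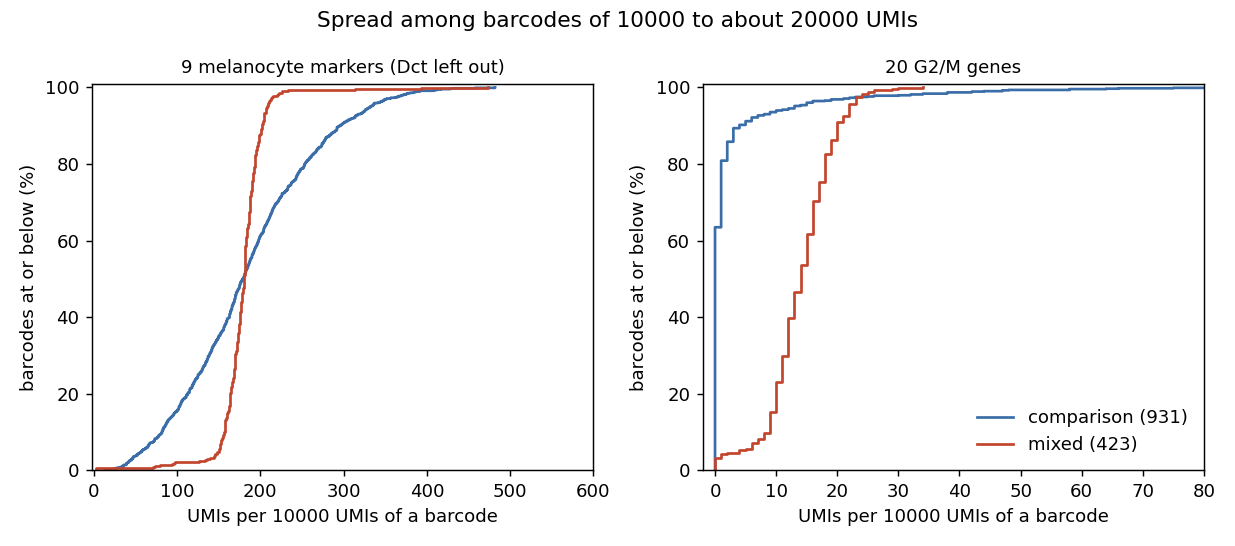
Cumulative percent of barcodes by summed UMIs of 9 melanocyte markers (left) and 20 G2/M genes (right) per 10000 UMIs, for 423 mixed (red) and 931 comparison (blue) barcodes of 10000 to 20011 UMIs. The melanocyte markers ran from 150 to 208 UMIs (5th to 95th percentile) in mixed and from 58 to 332 in comparison barcodes, and 63.5% of comparison barcodes had no G2/M UMI.

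Named melanocyte, stress and interferon genes were also spread more evenly over mixed barcodes in this UMI range. The 9 melanocyte markers without *Dct* had nearly equal medians, 180 UMIs in mixed and 179 in comparison barcodes of this UMI range, but ran from 150 to 208 UMIs (5th to 95th percentile) in mixed and from 58 to 332 in comparison barcodes. *Hspa1a*, encoding an inducible heat shock protein, was detected in 95.5% of mixed and 53.1% of comparison barcodes, although its level was lower in mixed barcodes, 423 against 602 CPM. The interferon-induced chemokine gene *Cxcl9* was at 28.4 against 32.2 CPM, yet was found in 22.0% of mixed and 1.83% of comparison barcodes. *Ifit3* was found in 26.5% against 13.96%, at 32.4 against 50.9 CPM. *Oca2*, a melanosomal transporter gene, was found in 17.5% against 6.34% of barcodes, at 19.9 against 12.7 CPM. In barcodes of any depth it was found in 15.96% against 10.2%.

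The variance of UMIs over barcodes divided by their mean, which is 1 when barcodes differ by counting alone, summarised this pattern. It was lower in mixed barcodes for 1868 of 2144 genes with at least 0.5 UMIs per barcode in both groups (87.1%), with a median of 1.06 against 1.21. For *Mlana* it was 2.99 against 20.1, for *Pmel* 3.36 against 24.9, for *Hspa1a* 4.70 against 38.4 and for *Ube2c* 1.27 against 3.95. Keratinocyte genes could go the other way: *Lgals7* had 14.7 against 4.13, and *Krt17*, which was below the level limit of this count, had 100.5 against 3.29, with 30.3% of its UMIs over all mixed barcodes in 1 barcode. The deepest quartile of mixed barcodes was less even, with 10.5 for *Ube2c*, 9.01 for *Hspa1a* and a median over genes of 1.17. Over mixed and comparison barcodes of any depth *Mlana* had 6.09 against 17.5, *Hspa1a* 5.63 against 27.9 and *Ube2c* 3.47 against 12.4. There 81.2% of 2370 genes had the lower value in mixed barcodes, with a median of 1.11 against 1.19.

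**Figure D5:**
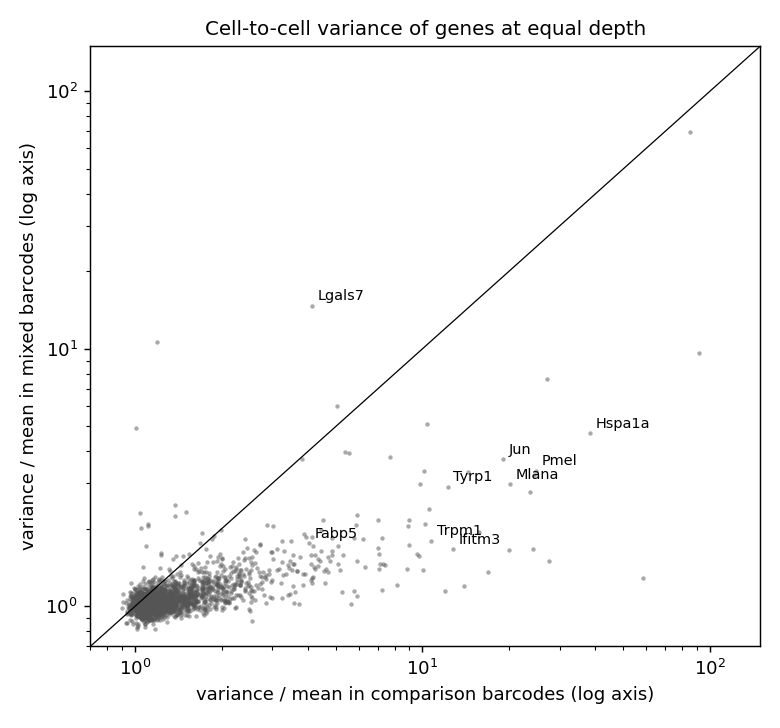
Variance over mean of UMIs across barcodes of 10000 to 20011 UMIs (thinned to 10000), in comparison (horizontal log axis) and mixed barcodes (vertical log axis), 1 point per gene with at least 0.5 UMIs per barcode in both; the line marks equality. Of 2144 genes 1868 lie below the line.

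Whole profiles gave the same order. The distance of each barcode's profile to that of all UMIs of the library, as the percent of UMIs that would have to be moved to other genes, had a median of 28.6% in the mixed and 31.8% in the comparison barcodes of this UMI range (5th to 95th percentiles, 27.3 to 31.2% and 29.3 to 36.04%). To the profile of the low-UMI barcodes it was 27.0% and 33.1%. In that profile the spinous genes other than *Krt10* summed to 10854 CPM, against 920 CPM in comparison barcodes of any depth. Since mixed barcodes were chosen on keratins, the choice may fix part of this nearness. At 10000 UMIs the mixed barcodes of this range had a median of 2757 detected genes and the comparison barcodes 2897. The part of free RNA and of joined cells in these values was not tested.

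Genes lower in mixed barcodes had other properties. The 12 lowest ratios among genes of at least 50 CPM were *Phf3*, *Cxcl9*, *Kmt2a*, *Rc3h1*, *Ppfia1*, *Spire1*, *Kdm5a*, *Cdc14a*, *Sash1*, *Hmcn1*, *Ash1l* and *Jmy*, with log2 ratios from -1.32 to -1.24. In barcodes of 10000 to 20011 UMIs 11 of them were lower still (-2.04 for *Kmt2a* to -1.71 for *Cdc14a*), whereas *Cxcl9* was at -0.18 (-0.50 to 0.13). *Kmt2a*, *Ash1l* and *Kdm5a* encode enzymes that add or remove histone methyl groups, and *Phf3* encodes a regulator bound to RNA polymerase II. *Phf3* was at 38.8 against 96.8 CPM and *Kmt2a* at 26.2 against 65.1 CPM. *Malat1*, a nuclear RNA, was at 8008 against 12740 CPM (log2 ratio, -0.67; -0.68 to -0.66; -1.27 in barcodes of 10000 to 20011 UMIs) and *Neat1*, of the nuclear paraspeckles, at 80.3 against 121 CPM. The difference followed gene span: over 7641 genes of at least 10 CPM outside the keratinocyte and follicle lists, in quartiles of span, the median log2 ratio was 0.12 in the shortest (up to 10.1 kb), -0.05, -0.32 and -0.65 in the longest (57.2 kb or more), in which 1706 of 1909 genes were lower. The mitochondrial share of UMIs was 3.05% against 3.06%, and ribosomal protein genes took 27.0% against 25.1%.

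Merkel, endothelial, muscle and red blood cell markers were at or near 0, whereas follicle and sebaceous lists were higher in mixed barcodes. Merkel cell markers *Krt8*, *Krt18*, *Krt20* and *Atoh1* had 0 UMIs in mixed barcodes. The 5 endothelial markers summed to 0.177 CPM, with *Pecam1* the sole gene detected, the 5 muscle markers to 1.24 CPM and the 4 red blood cell genes to 1.24 CPM, all of it *Hbb-bs*. Fibroblast markers summed to 720 against 847 CPM, of which *Sparc* made up 718 CPM, while *Col3a1* and *Lum* had 0. Hair shaft and inner root sheath genes summed to 8.16 against 6.71 CPM. The hair follicle stem and outer root sheath list had 8 of 10 genes 2-fold or more higher (median log2 ratio, 3.05), with *Sox9* at 8.51 against 1.47 CPM. The sebaceous and infundibulum list had 5 of 8 (4.31), with *Scd1* at 33.7 against 35.4 CPM. Without the highest mixed barcode of each gene these 2 medians were 2.47 and 3.32.

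The immune list was low and divided in direction. *Cd3g*, a subunit of the T-cell receptor complex, had 30 UMIs, in 5.32% of mixed against 0.0718% of comparison barcodes, and *Trdc*, the constant region of the delta chain, 16 UMIs in 2.66% against 0.0359%. *Cd3e* had 6 and 0 UMIs. Of the immune list of 10 genes, 3 had 0 UMIs in mixed barcodes, among them the Langerhans cell marker *Cd207*, and the list summed to 25 against 33.7 CPM, with *H2-Aa* its most abundant gene at 7.27 against 14.5 CPM. *Cd74*, the invariant chain of class II molecules, was lower as well (log2 ratio between -2.18 and -1.04). The stress and interferon lists had medians of -0.06 and -0.05 over barcodes of any depth. In barcodes of 10000 to 20011 UMIs the medians were -0.43 (15 of 19 genes lower) and -0.59 (9 of 9 lower, 6 beyond counting error), beside -0.23 over all genes of 10 CPM or more in that range. *Xist* was found in 0 of 564 mixed barcodes, which allows up to 0.532% by a bound of 3 counts (exact 95% upper limit, 0.652%), and a Y-linked UMI in 54.6% of mixed, 64.5% of comparison and 61.9% of epidermal barcodes, and *Xist* had 4 UMIs in the whole library, so pairs of *Xist* and Y-linked UMIs were too rare to be read.

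In the bulb library the same limits found far fewer such barcodes. At more than 10000 UMIs 22 of 3309 barcodes were mixed (0.665%; 0.417 to 1.005%), and at more than 5000 UMIs 26 of 3760 (0.691%), against 16.8% at early anagen. The libraries were not matched on depth, and the early-anagen share ran from 52.7% at 10000 to 12000 UMIs to 5.78% at 20000 to 30000. In all bulb barcodes past the limits the cornified genes summed to 26.1 CPM and *Krt10* made up 95.5% of *Krt10* and *Krt14* UMIs. Hair cycle stage, age, depilation (recorded at early anagen only), tissue dissection and kit version (3 at early anagen, 2 for the bulb) differed between these 2 libraries. These differences cannot be told apart.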

How the data were processed

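Droplet 3′ libraries of GFP-positive sorted cells were analysed, 1 per condition. The deposited values are counts of UMIs for each gene in each barcode, not normalized. The submitters' processing notes name Cell Ranger 6.0.1 and mm10. All values were checked to be whole, and the lowest totals were 500 UMIs (early anagen) and 504 (bulb).

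Barcodes were thinned to 10000 UMIs without replacement (seed 1), UMIs were summed per group and scaled to CPM, and ratios were given exact 95% intervals for 2 Poisson sums and shares Clopper-Pearson intervals; reads of near-identical genes may be split. No test was run across samples and no p-value is given. A gene at 0 UMIs was bounded at 3 counts. Named genes were those of the lists and the 12 highest and 12 lowest ratios among genes of at least 50 CPM, without *Dct*, *Krt5*, *Krt10*, *Krt14*, mitochondrial, ribosomal protein and clone-named genes; other genes were named after their values were seen. Results of 1 further marker list are not reported here. The barcodes and lists were chosen with earlier results of these data known. Doublets were scored with Scrublet (scanpy 1.11.5) and not removed. Other limits on keratin, *Dct*, mitochondrial and total UMIs, other scalings and depth matching were tried. Gene positions are from GENCODE M21. Python 3.11.15, numpy 2.4.6, scipy 1.17.1 and pandas 2.3.3 were used, and the calculations were tested on simulated data.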

Additional observations from a re-analysis of the deposited data

How the results depend on the processing

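The melanocyte, basal, spinous, cornified and G2/M medians kept their sign under the alternatives run. With 1 or more *Krt10* and *Krt14* UMIs there were 1534 mixed barcodes and the melanocyte, basal, spinous and cornified medians were -0.048, 0.81, 3.10 and 3.51. With 10 or more there were 171, the melanocyte, spinous and cornified medians were -0.40, 5.04 and 6.67, the UMI ratio was 0.518 and the keratinocyte level was 21.9% of the epidermal one. Choosing after thinning gave a G2/M median of 0.35, a UMI ratio of 0.493 and 13.0%. A limit of 1000 CPM gave -0.22 (melanocyte) and 3.83 (spinous), and 5000 CPM gave 3.61 (basal). At least 10 *Dct* UMIs gave 5.39 (spinous) and 6.77 (cornified). Over 5000 UMIs there were 942 mixed barcodes, with -0.37 (melanocyte), 1.56 (basal), 3.81 (spinous) and 2.01 (cornified). Without thinning the medians were -0.18 (melanocyte), 3.53 (basal) and 0.37 (G2/M), and with a reduced total -0.19 (melanocyte). Comparison barcodes matched on UMIs gave 1.68 (basal) and 1.47 (G2/M). Without the 10% of barcodes with most UMIs, G2/M was 0.94, the UMI ratio 0.555 and the keratinocyte level 14.6%. The following 3 alternatives were chosen after seeing the data. Leaving out each gene's highest barcode gave 5.47 (spinous) and 7.11 (cornified). Barcodes up to 20011 UMIs gave -0.37 (melanocyte), 5.07 (spinous), 6.94 (cornified) and 2.65 (G2/M), and the 141 mixed barcodes above that gave -0.14 (melanocyte), 2.85 (spinous) and 1.25 (cornified). The causes of these shifts were not tested. Depth limits genes below about 1 UMI per barcode, and a single library gives no error between mice.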
